A study of Mus musculus with 6 samples.

Results

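The endosomal nucleic acid Toll-like receptor pathway was followed in DP42 cells, a mouse myeloma line, through 9 listed genes. They were the receptors Tlr9, Tlr7 and Tlr3, the chaperone Unc93b1, the adaptor Myd88, the kinases Irak1 and Irak4, the ubiquitin ligase Traf6 and the transcription factor Irf5. A gene counted as measured when the platform annotation gave it a probe set naming that gene alone, and 7 of the 9 were measured, each by 1 probe set, among 22180 genes in all. Irf5 has no value here because its 1 annotated probe set names another gene too, and Irak4 has none because no probe set was named for it in the annotation used here.

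Endosomal Toll-like receptors bind nucleic acids that reach the inside of endosomes. TLR9 binds DNA rich in unmethylated CpG, TLR7 binds single-stranded RNA and TLR3 binds double-stranded RNA, and all of them depend on UNC93B1 to leave the endoplasmic reticulum. TLR9 and TLR7 signal through MYD88, which assembles IRAK4 and IRAK1 and passes the signal by way of TRAF6 to NF-kappaB and to IRF5 and IRF7, whereas TLR3 uses the adaptor TICAM1. B cells are known to carry TLR9 and TLR7. The title of the series names DNA released by neutrophils as the subject of the study, and TLR9 is a known DNA receptor.

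DP42 cells were kept for 24 h by themselves, together with mouse B cells, which the design text calls the control, or together with neutrophils, written "neutrophils (IMC)" in the labels, with 2 arrays in each of the 3 groups. The sample descriptions call the culture alone a control experiment as well, and they write the neutrophil partner as myeloid cells. After flow sorting, total RNA of the myeloma cells was hybridised to Affymetrix arrays. The labels give DP42 as the cell type of all 6 arrays, although the titles of the co-cultures name the partner cell. All groups use 1 cell line; its genotype, and the strain and age of the mice that gave the partner cells, are not given in the sources used here. The labels do not tell whether replicate arrays trace back to independent cultures. The p-values therefore reflect the scatter of these 6 arrays alone, and that scatter may be technical. In RNA from sorted bulk samples, fewer cells of a type and less RNA per cell cannot be told apart.

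All values are log2 expression values from robust multi-array averaging (RMA), and differences between groups are differences of log2 means, so that 1 unit is a doubling. The array medians over all probe sets lay between 7.09 and 7.22, and the number of arrays limits the precision. The 2 B-cell arrays differed from each other. Over all genes, B-cell replicate 1 correlated at 0.996 with neutrophil co-culture replicate 1 and at 0.992 with B-cell replicate 2. B-cell replicate 2 correlated at 0.987 and 0.984 with the neutrophil arrays. With 2 arrays it cannot be told which is the odd one. The comparisons with the B-cell group are also given below without B-cell replicate 1. It was the B-cell array nearer the neutrophil arrays, so leaving it out favours larger differences between those groups. Of 11 plasma cell markers, 6 lay above the dim reference explained below on all 6 arrays (Sdc1, Xbp1, Irf4, Mzb1, Derl3 and Slamf7), while Prdm1, Tnfrsf17, Jchain and Fkbp11 lay below it on all 6. Of 9 measured mature B cell markers, 6 also lay above it on all 6 arrays (Cd79a, Cd79b, Cd22, Pax5, Cd37 and Blk). Ms4a1, Cr2 and Fcer2a did so on none. The mean of these 9 genes was 9.61 and 9.56 alone, 9.55 and 9.62 with B cells and 9.53 and 9.53 in neutrophil co-culture. Of 19 neutrophil markers, Itgam alone lay above that reference on all 6 arrays, 8 did so on some and 10, Ly6g, S100a8 and Csf3r among them, on none. The mean of those 19 genes was 6.71 and 6.78 in DP42 cells alone, 6.75 and 6.84 with B cells and 7.12 and 7.17 in neutrophil co-culture. With neutrophils, 18 of the 19 had a positive difference from culture alone and 16 from the B-cell co-culture. At an adjusted p under 0.05, limma called 5 higher against culture alone and 1 against the B-cell co-culture. Of all genes it called 1.49% and 0.0496%, counting both directions. The granule gene Ngp was among the 5 and rose against culture alone by 1.82 ± 0.15 (SE, limma, adjusted p = 0.00498). The part of partner-cell RNA in the differences below was not tested.

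The promoter windows below show where binding motifs of factors used by this pathway and by B cells stand in front of 3 of its measured genes. They are the RefSeq windows of mouse build GRCm38.p6, 250 bases up to the start site, 5′ to 3′ on the strand of the gene, with the motif matches in capitals. The windows are chr9:106222348-106222597 on the plus strand for Tlr9, chr9:119340019-119340268 on the minus strand for Myd88 and chr8:45410381-45410630 on the minus strand for Tlr3.
Tlr9: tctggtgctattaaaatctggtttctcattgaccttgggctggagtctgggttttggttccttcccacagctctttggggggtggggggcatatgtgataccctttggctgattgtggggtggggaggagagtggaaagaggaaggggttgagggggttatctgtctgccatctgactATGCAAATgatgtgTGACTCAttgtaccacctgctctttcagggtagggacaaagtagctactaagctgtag
Myd88: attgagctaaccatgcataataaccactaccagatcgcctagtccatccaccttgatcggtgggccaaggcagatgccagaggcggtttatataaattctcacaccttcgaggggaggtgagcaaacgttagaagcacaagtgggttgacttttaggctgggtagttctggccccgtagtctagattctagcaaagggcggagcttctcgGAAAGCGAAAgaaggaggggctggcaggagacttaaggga
Tlr3: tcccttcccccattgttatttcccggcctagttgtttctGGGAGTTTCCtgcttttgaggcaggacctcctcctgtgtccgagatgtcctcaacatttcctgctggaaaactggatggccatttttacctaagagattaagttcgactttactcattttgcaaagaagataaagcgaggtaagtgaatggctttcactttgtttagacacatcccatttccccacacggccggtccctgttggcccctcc

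The search covered 4 motifs and was made on both strands, and the matches did not overlap each other. In the Tlr9 window the octamer ATGCAAAT, a motif of POU factors such as those of B cells, stood 72 to 65 bases before the start, and an AP-1 motif (TGANTCA, matched as TGACTCA) stood 58 to 52 bases before it. The Myd88 window held the core of an interferon-stimulated response element (GAAANNGAAA, matched as GAAAGCGAAA) 40 to 31 bases before the start. The Tlr3 window held a kappa-B motif (GGGANNTTCC, matched as GGGAGTTTCC) 211 to 202 bases before the start. Among 32851 promoter windows of the same length, the octamer occurred in 1.6%, the AP-1 motif in 6.75%, the response element core in 2.98% and the kappa-B motif in 1.21%. A match is a description of letters, not a bound site. Of the 9 listed genes, 7 had a window in the table, 3 of these had a match, and Unc93b1 and Tlr7 had no window there. The windows of Irak1, Irak4, Irf5 and Traf6 held no match, and those printed above were chosen because they held one. The share of all windows with any of the 4 motifs was not computed.

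Of the 3 measured receptors, Tlr9 gave a signal well above the dimmest range of the arrays, and Tlr7 and Tlr3 did not. As a reference for dim signal, the 95th percentile of 1390 olfactory and vomeronasal receptor genes, which sense odorants and pheromones, was taken on each array. It was 7.74 and 7.75 in DP42 cells alone, 7.44 and 7.82 with B cells and 7.29 and 7.18 in neutrophil co-culture, and the median of the same genes was 5.51, 5.43, 5.14, 5.49, 4.99 and 4.86 in that order. Both neutrophil arrays thus had the lowest reference. Tlr9, Unc93b1, Myd88, Irak1 and Traf6 lay above the reference on all 6 arrays, as did 8791 of the 22180 genes (39.6%). Tlr9 exceeded it by 1.43 to 2.25, Unc93b1 by 2.63 to 3.53, Myd88 by 2.08 to 2.80, Irak1 by 1.79 to 2.68 and Traf6 by 1.87 to 2.80. Tlr7 and Tlr3 lay below it on all 6 arrays and also below the lower quartile of all genes, which was 6.20 to 6.41, so their values hold little information on the genes' RNA in either direction.

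**Figure D1:**
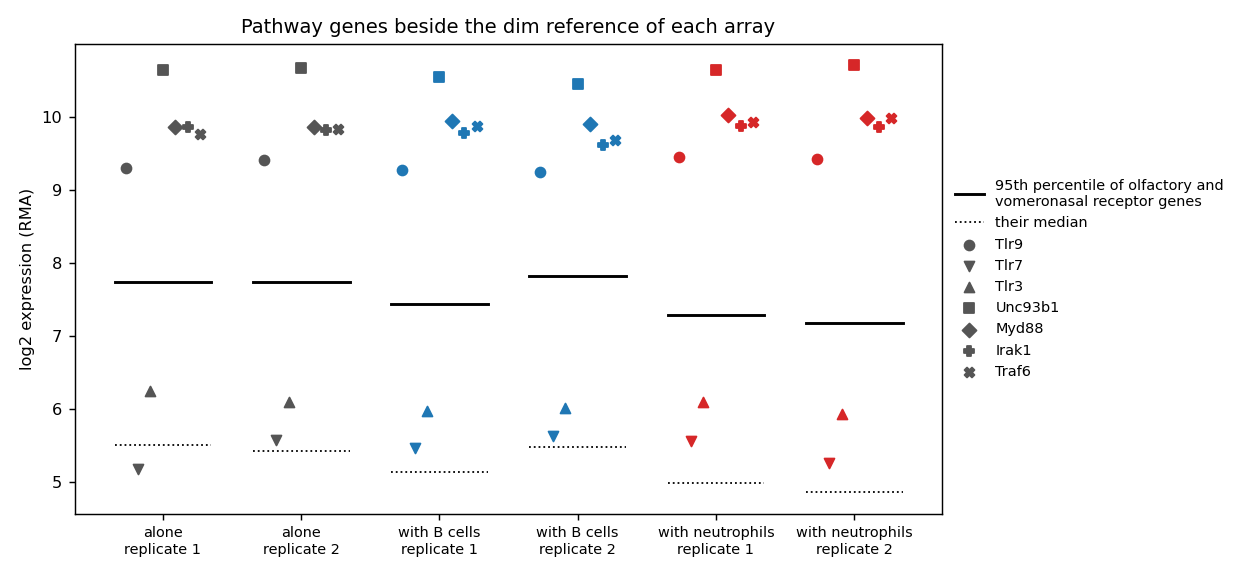
The plot shows, for each of the 6 arrays (horizontal axis), the log2 expression value (RMA, vertical axis) of the 7 measured genes as symbols, a solid bar at the 95th percentile of the 1390 olfactory and vomeronasal receptor genes and a dotted line at their median. Tlr9, Unc93b1, Myd88, Irak1 and Traf6 lie above the solid bar on all 6 arrays, Tlr7 and Tlr3 lie below it on all 6, and the bar is lowest, at 7.29 and 7.18, in the neutrophil co-culture.

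Tlr9, the DNA receptor, read 9.31 and 9.41 in DP42 cells alone, 9.28 and 9.25 with B cells and 9.45 and 9.43 in neutrophil co-culture. The neutrophil arrays were the highest, the arrays of cells alone lay in the middle and the B-cell arrays were the lowest, with no overlap between any groups. The group means were 9.44 ± 0.02 (SD, n = 2 in every group of this report) with neutrophils, 9.36 ± 0.07 alone and 9.27 ± 0.02 with B cells. The mean with neutrophils was 0.17 ± 0.09 (SE) above that with B cells (95% interval -0.04 to 0.38, 0.974 to 1.30 as a fold; limma across all genes, adjusted p = 0.303), and neither neighbouring step in the order passed the test. Against culture alone it was 0.08 ± 0.09 higher (-0.13 to 0.29; adjusted p = 0.638; 0.03 without replicate 1 of the cells alone and 0.13 without replicate 2), and with B cells it was 0.09 lower than alone (difference -0.09, -0.30 to 0.12; adjusted p = 1.00). The whole range of Tlr9 over the 6 arrays was 0.20, against a median range of 0.33 over all genes, and 14.7% of genes had a smaller one.

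Tlr7, the receptor for single-stranded RNA, read 5.19 and 5.58 alone, 5.47 and 5.63 with B cells and 5.56 and 5.26 in neutrophil co-culture, below the dim reference throughout. The groups overlapped in every comparison, and replicates of 1 group lay as far apart as the groups. Its means were 5.55 ± 0.11 with B cells, 5.41 ± 0.21 with neutrophils and 5.39 ± 0.28 alone. Tlr7 differed by -0.14 ± 0.15 between neutrophil and B-cell co-culture (-0.49 to 0.21; limma, adjusted p = 0.568) and by 0.03 between neutrophil co-culture and culture alone (-0.32 to 0.38; adjusted p = 0.941).

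Tlr3, the receptor for double-stranded RNA, read 6.26 and 6.10 alone, 5.98 and 6.01 with B cells and 6.10 and 5.93 in neutrophil co-culture. Cells alone held the highest reading and the B-cell arrays lay below both arrays of cells alone, while the neutrophil arrays lay on both sides of the B-cell arrays. The means, all below the dim reference, were 6.18 ± 0.11 alone, 6.02 ± 0.12 with neutrophils and 5.997 ± 0.03 with B cells. The neutrophil group was 0.16 ± 0.10 below cells alone (difference -0.16, -0.40 to 0.08; limma, adjusted p = 0.432; -0.25 without neutrophil replicate 1, -0.07 without neutrophil replicate 2 and -0.08 without replicate 1 of the cells alone) and differed from the B-cell group by 0.02 (-0.22 to 0.26; adjusted p = 0.902).

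Unc93b1, the chaperone that carries these receptors to endosomes, read 10.64 and 10.66 alone, 10.55 and 10.45 with B cells and 10.64 and 10.71 in neutrophil co-culture. Its readings in cells alone and with neutrophils overlapped, and both B-cell arrays lay below all 4 others. The means were 10.67 ± 0.04 with neutrophils, 10.65 ± 0.02 alone and 10.50 ± 0.07 with B cells. The neutrophil mean was 0.17 ± 0.09 above the B-cell mean (-0.04 to 0.38; limma, adjusted p = 0.303) and 0.02 above that of cells alone (-0.19 to 0.24, 0.878 to 1.18 as a fold; adjusted p = 0.903).

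Myd88, the adaptor shared by TLR9 and TLR7, read 9.87 and 9.87 alone, 9.94 and 9.90 with B cells and 10.02 and 9.98 in neutrophil co-culture. No groups overlapped: the readings were lowest in cells alone, intermediate with B cells and highest with neutrophils. The means were 9.87 ± 0.00053 alone, 9.92 ± 0.02 with B cells and 10.001 ± 0.03 with neutrophils. The neutrophil mean was 0.14 ± 0.09 above that of cells alone (-0.07 to 0.34, 0.954 to 1.27 as a fold; limma, adjusted p = 0.433) and 0.08 ± 0.09 above that with B cells (-0.12 to 0.28; adjusted p = 0.574). The test draws on the spread of all genes as well as on that of Myd88, whose range over the 6 arrays, 0.16, was wider than that of 6.90% of genes.

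Irak1, a kinase recruited by MYD88, read 9.87 and 9.82 alone, 9.79 and 9.61 with B cells and 9.87 and 9.86 in neutrophil co-culture. As with Unc93b1, both B-cell arrays were the lowest and the other groups overlapped, and B-cell replicate 2 was the lowest of all. The means were 9.87 ± 0.01 with neutrophils, 9.84 ± 0.04 alone and 9.70 ± 0.12 with B cells. The neutrophil mean lay 0.17 ± 0.10 above the B-cell mean (-0.06 to 0.39; limma, adjusted p = 0.333) and 0.02 above cells alone (-0.20 to 0.25, 0.870 to 1.19 as a fold; adjusted p = 0.909).

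Traf6, the ubiquitin ligase that acts after the IRAK kinases, read 9.76 and 9.83 alone, 9.88 and 9.68 with B cells and 9.93 and 9.98 in neutrophil co-culture. Both neutrophil arrays lay above all 4 others, while the B-cell arrays spanned the readings of cells alone. The means were 9.95 ± 0.04 with neutrophils, 9.80 ± 0.05 alone and 9.78 ± 0.14 with B cells. The neutrophil mean was 0.17 ± 0.10 above the B-cell mean (-0.06 to 0.41; limma, adjusted p = 0.338) and 0.16 ± 0.10 above that of cells alone (-0.08 to 0.39, 0.948 to 1.31 as a fold; adjusted p = 0.430).

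**Figure D2:**
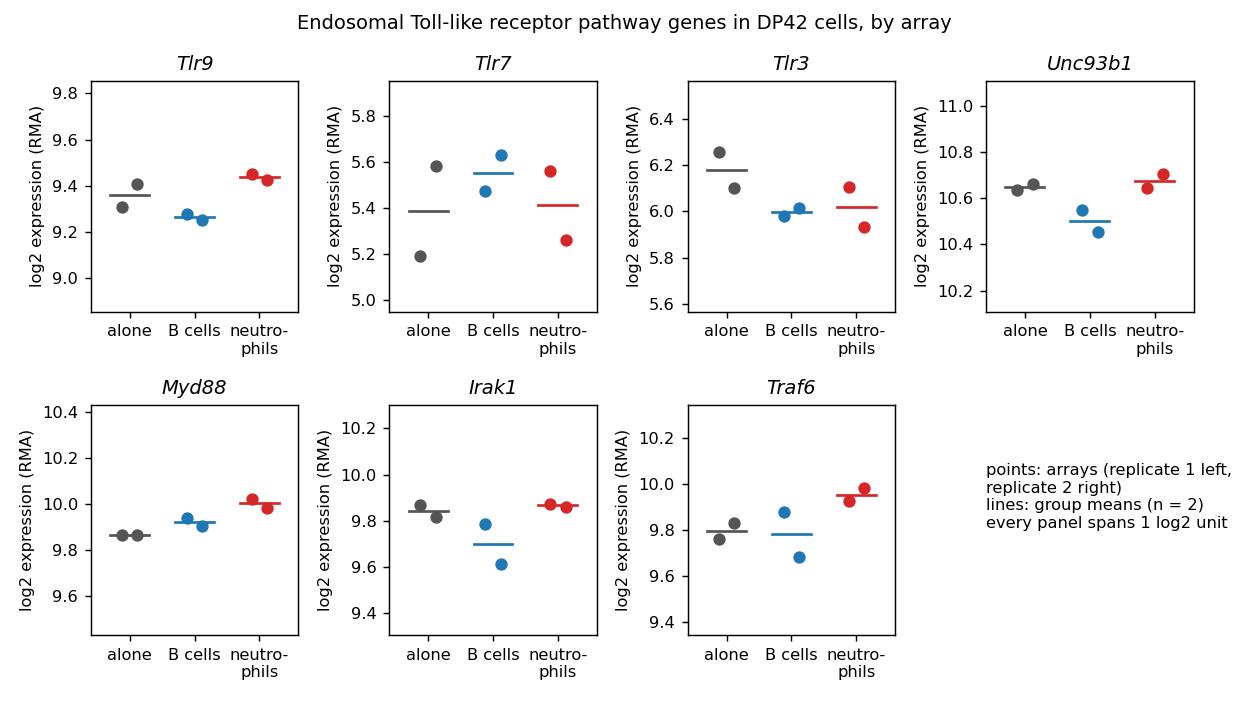
Each panel plots the log2 expression value (RMA) of 1 gene on the vertical axis against the culture on the horizontal axis, with 1 point per array and a line at the mean of the 2 arrays; every panel spans 1 log2 unit. The neutrophil points of Tlr9, Myd88 and Traf6 lie above all 4 others, the B-cell points of Unc93b1 and Irak1 lie below all 4 others, and those of Tlr7 scatter without order.

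The comparison of neutrophil with B-cell co-culture asks how a neutrophil neighbour differs from another blood cell neighbour. Tlr9, Unc93b1, Myd88, Irak1 and Traf6 had higher means with neutrophils, by 0.08 to 0.17, Tlr3 differed by 0.02 and Tlr7 by -0.14. None of the 7 passed the test: limma called 0 of 7 at an adjusted p under 0.05, against 11 of 22180 genes (0.0496%), and 0 of 7 had an unadjusted p under 0.05, against 20.1% of all genes. The arrays of both groups did not overlap for 5 of the 7, against 56.7% of all genes. The median difference of the 7 was 0.17, that of all genes was 0.01, and that of the 11090 genes at or above the median brightness, which include the 5 genes above the dim reference, was 0.13. The smallest difference called in any gene was 0.75, and the upper interval bounds of the 5 genes above the dim reference, 0.28 to 0.41, lay under it. Without B-cell replicate 1 still none of the 7 was called, although limma then called 5453 genes (24.6%). At an unadjusted p under 0.05 there were then 3 of the 7, against 44.7% of all genes. The differences became 0.26 for Irak1, 0.27 for Traf6 and 0.22 for Unc93b1 (limma, adjusted p = 0.0655, 0.0650 and 0.0951), and 0.18 for Tlr9, 0.10 for Myd88, 0.0041 for Tlr3 and -0.22 for Tlr7. Leaving out B-cell replicate 2 instead gave 0.08 for Irak1, 0.07 for Traf6 and 0.13 for Unc93b1. After quantile normalisation the differences of Tlr9, Unc93b1, Irak1 and Traf6 were 0.00 to 0.04 and that of Myd88 was -0.08.

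In the comparison of neutrophil co-culture with culture alone, Traf6 and Myd88 had the largest positive differences, 0.16 and 0.14, followed by Tlr9 at 0.08. Tlr7, Unc93b1 and Irak1 differed by 0.02 to 0.03 and Tlr3 by -0.16. The limma test called 0 of the 7, against 331 of 22180 genes (1.49%), of which 302 were lower and 29 higher. At an unadjusted p under 0.05 the count was also 0 of 7, against 17.7% of all genes, and the arrays did not overlap for 3 of the 7, against 63.0% of all genes. The median of the 7 was 0.03, beside 0.02 over all genes and 0.11 over the brighter genes, and after quantile normalisation Tlr9 stood at -0.05. Tlr9, Myd88 and Traf6 were the genes with both neutrophil arrays above the other 4, 3 of 7, and 23.4% of all genes had that pattern.

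Adding B cells to the culture likewise moved no listed gene past the test. Tlr3 had the largest difference, -0.18 (-0.42 to 0.06), then Tlr7 at 0.17 (-0.18 to 0.52), and Unc93b1, Irak1 and Tlr9 lay 0.15, 0.14 and 0.09 under culture alone (differences of -0.15, -0.14 and -0.09). Myd88 differed by 0.06 (-0.15 to 0.26) and Traf6 by -0.01 (-0.25 to 0.22). The limma test called 0 of 7 and 0% of all genes, and at an unadjusted p under 0.05 the counts were 0 of 7 and 3.92% of all genes. For 5 of the 7 the groups did not overlap, against 27.1% of all genes, and the median of the 7 was -0.09. Without B-cell replicate 1, limma again called 0 of 7 and 0 of all genes, and 1 of the 7, Irak1, had an unadjusted p under 0.05, against 15.5% of all genes. The differences without it were -0.23 for Irak1, -0.20 for Unc93b1, -0.16 for Tlr3, -0.11 for Traf6, -0.10 for Tlr9, 0.04 for Myd88 and 0.24 for Tlr7. Without B-cell replicate 2, Irak1 stood at -0.06 and Traf6 at 0.08. Tlr9 ran from -0.14 without replicate 1 of the cells alone to -0.04 without their replicate 2, and Tlr3 stood at -0.10 without the former. The 3 comparisons share arrays, so their differences are not independent of each other.

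**Figure D3:**
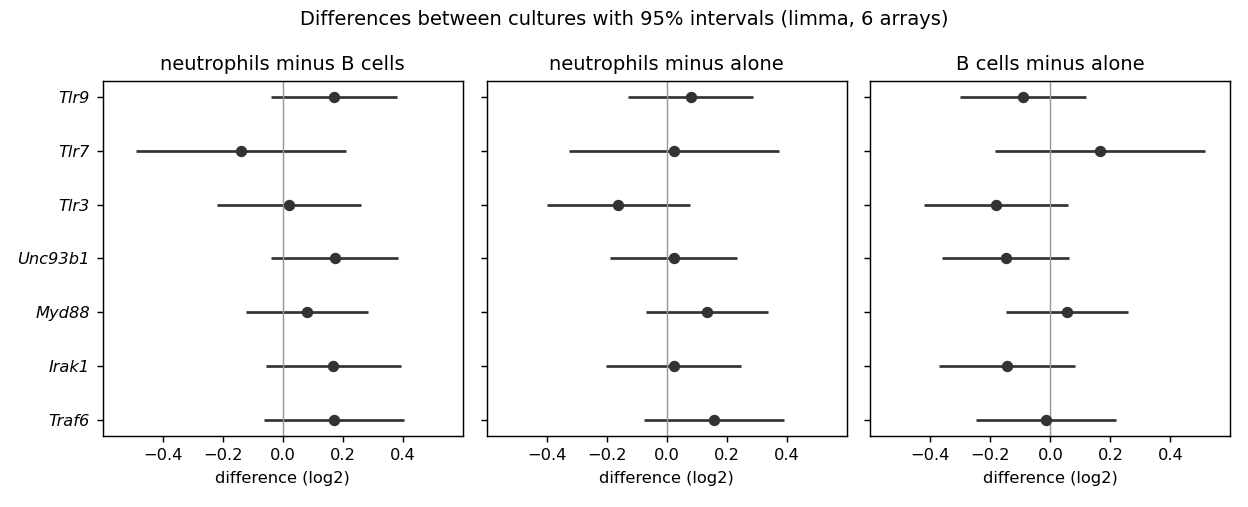
The panels plot the log2 difference between culture groups (horizontal axis) of the 7 measured genes (vertical axis), with points at the fitted difference and bars for the 95% interval from limma over 6 arrays. All 21 bars cross 0; with neutrophils against B cells, the bar of Tlr9 runs from -0.04 to 0.38.

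Over the 6 arrays some of these genes moved together. The Pearson correlation was 0.90 between Unc93b1 and Irak1, 0.83 between Tlr9 and Unc93b1, 0.75 between Tlr9 and Traf6 and 0.73 between Myd88 and Traf6, but 0.22 between Myd88 and Unc93b1. The dim Tlr7 had -0.58 with Irak1 and -0.53 with Unc93b1. These are descriptions over 6 arrays that share groups and normalisation, and no background of other gene pairs was set beside them. By the same measure, members were compared with genes at or above the median brightness. Those most like Tlr9, among 10180 compared, were Slc25a37 (0.981), Ndufa2 (0.979) and Xylt2 (0.979). Those most like Myd88, among 10275, were Nxt2 (0.999), Trim27 (0.996) and Tmem60 (0.994). For the dim Tlr7, among 7858, they were Fam181b (0.961), Cfap73 (0.95) and Smim1 (0.946). For Tlr3, among 9392, they were Npm1 (0.966), Pdlim7 (0.955) and Gpr63 (0.954). On replicate 1 of the cells alone, Fam181b, Cfap73, Smim1 and Gpr63 lay below the dim reference.

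The other genes of the pathway were taken from lists by role, with 129 of 142 listed genes measured. The limma test called none of the 129 in any comparison. At an unadjusted p under 0.05 there were 14 higher and 6 lower genes with neutrophils against B cells, 13 and 3 against culture alone, and 2 and 3 with B cells against culture alone. These were 15.5%, 12.4% and 3.88% of the 129, beside 20.1%, 17.7% and 3.92% of all genes. Over all genes the split ran the other way with neutrophils, with 1797 higher and 2652 lower against B cells and 1324 and 2599 against culture alone, while among the 11090 brighter genes it was 1595 and 436, and 1064 and 300. The difference was positive for 97 (75.2%), 95 (73.6%) and 66 (51.2%) of the 129 in the same order, with medians of 0.09, 0.09 and 0.00. Among the brighter genes 80.1%, 79.7% and 44.0% were positive. Without B-cell replicate 1, limma called 28 of the 129 in neutrophil against B-cell co-culture, 20 higher and 8 lower, among the 24.6% of all genes then called. In neutrophil co-culture against culture alone, a fit on the 4 arrays compared called 2 of the 129, Dusp1 higher and Tlr11 lower, beside 1338 of all genes (6.03%). At an adjusted p under 0.10 over 6 arrays it called Dusp1, 1 of the 129, beside 750 of all genes (3.38%).

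None of the other endosomal receptors lay above the dim reference on all 6 arrays. Tlr12, which in the mouse binds profilin of parasites together with TLR11, did so on 5 arrays, and Tlr8, Tlr11 and Tlr13 on none. Tlr11 read 7.15 and 7.18 alone, 6.71 and 7.05 with B cells and 6.47 and 6.77 in neutrophil co-culture. Its neutrophil readings lay below those of cells alone (-0.54 ± 0.14; limma, adjusted p = 0.111), in dim values whose reference genes were also lowest there. Tlr12 read 7.82 and 7.80 alone, 7.52 and 7.50 with B cells and 7.62 and 7.67 in neutrophil co-culture (neutrophil minus alone -0.17 ± 0.09; adjusted p = 0.358).

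Of the 17 measured genes for folding, trafficking and processing of the receptors, 15 lay above the dim reference on all 6 arrays, among them the chaperone genes Hsp90b1 and Cnpy3, the endolysosomal transporter Slc15a4 and the protease Ctss, while Ctsl and Ctsk did not on any. Their median difference was 0.12 with neutrophils against B cells and 0.09 against culture alone. The gene 5430427O19Rik, the mouse counterpart of the SLC15A4 partner TASL that recruits IRF5, read 8.74 and 8.78 alone, 8.96 and 8.56 with B cells and 9.04 and 8.9998 in neutrophil co-culture. Both neutrophil arrays were the highest, 0.26 ± 0.13 above culture alone (adjusted p = 0.338). Sdcbp, encoding syntenin-1, read 9.004 and 8.93 alone, 9.12 and 8.85 with B cells and 9.25 and 9.10 in neutrophil co-culture, a difference of 0.21 ± 0.12 from culture alone (adjusted p = 0.377) with a B-cell array between the neutrophil arrays.

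In uptake and digestion of nucleic acids, 9 of 13 measured genes lay above the dim reference on all 6 arrays, the endolysosomal exonuclease genes Pld3 and Pld4 among them. The list's median was 0.08 with neutrophils against B cells and 0.06 against culture alone. Scarb2, a lysosomal membrane protein, read 9.05 and 9.12 alone, 9.24 and 8.95 with B cells and 9.30 and 9.16 in neutrophil co-culture, 0.15 ± 0.12 above culture alone (limma, adjusted p = 0.512). Hmgb1, a nuclear protein that binds DNA and can carry it to receptors, read 12.29 and 12.31 alone, 12.35 and 12.21 with B cells and 12.22 and 12.14 in neutrophil co-culture (-0.12 ± 0.10; adjusted p = 0.505). The neutrophil arrays of Hmgb1 thus lay below those of cells alone.

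The other adaptors and kinases had positive differences in 20 of 21 measured genes with neutrophils against B cells (median 0.15) and in 19 of 21 against culture alone (median 0.13). The genes at or above the median brightness, with medians of 0.13 and 0.11, leaned the same way. Peli1, a ubiquitin ligase acting on IRAK kinases, read 9.50 and 9.62 alone, 9.71 and 9.52 with B cells and 9.86 and 9.85 in neutrophil co-culture. Its neutrophil arrays were the highest, 0.29 ± 0.10 above culture alone (limma, adjusted p = 0.208). Tab3, a subunit of the TAK1 kinase complex downstream of TRAF6, read 8.99 and 9.14 alone, 9.16 and 9.05 with B cells and 9.27 and 9.35 in neutrophil co-culture (0.25 ± 0.10; adjusted p = 0.256). Ticam1, the TLR3 adaptor, lay above the dim reference on all 6 arrays.

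Among 12 other transcription factors the neutrophil minus B-cell difference was positive in 12, with a median of 0.13, and the neutrophil minus alone difference in 11, with a median of 0.13. Irf7, the interferon factor of the TLR7 and TLR9 branch, lay below the dim reference on all 6 arrays. The NF-kappaB subunit gene Rela read 10.31 and 10.23 alone, 10.44 and 10.26 with B cells and 10.55 and 10.51 in neutrophil co-culture, 0.26 ± 0.10 above culture alone (limma, adjusted p = 0.232). Rel, encoding the c-Rel subunit, read 10.20 and 10.18 alone, 10.32 and 10.16 with B cells and 10.39 and 10.45 in neutrophil co-culture (0.22 ± 0.10; adjusted p = 0.280). The neutrophil arrays of both genes lay above all 4 others.

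The inhibitors had the highest list medians, 0.18 with neutrophils against B cells and 0.15 against culture alone, with 18 and 17 of 21 differences positive. Dusp1, a phosphatase that turns off MAP kinases, read 7.85 and 7.83 alone, 7.97 and 7.82 with B cells and 8.21 and 8.26 in neutrophil co-culture. Its neutrophil arrays were above all others, 0.39 ± 0.10 over culture alone, with the lowest adjusted p of the 129 genes in that comparison (limma, adjusted p = 0.0931). Trim30a, which promotes degradation of TAB proteins, read 8.41 and 8.30 alone, 8.54 and 8.31 with B cells and 8.94 and 8.71 in neutrophil co-culture, 0.47 ± 0.12 above culture alone (adjusted p = 0.106). Socs1, an inhibitor of cytokine and TLR signalling named after its values were seen, read 8.18 and 8.06 alone, 8.07 and 7.78 with B cells and 8.40 and 8.39 in neutrophil co-culture, a difference of 0.47 ± 0.12 from the B-cell group (adjusted p = 0.147). Without B-cell replicate 1, whose Socs1 reading was nearer the neutrophil readings than that of replicate 2, the difference was 0.61. That fit had 1 B-cell array.

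Of the surface receptors and their partners, Tlr6, Cd180, Ly86, Ly96 and Tirap lay above the dim reference on all 6 arrays. Ly96, the lipopolysaccharide co-receptor MD-2, read 8.66 and 8.61 alone, 8.98 and 8.86 with B cells and 8.84 and 9.05 in neutrophil co-culture. Both co-cultures lay above cells alone, by 0.31 ± 0.11 with neutrophils (limma, adjusted p = 0.199). Tlr1, a partner of TLR2, read 7.66 and 7.71 alone, 7.65 and 7.84 with B cells and 7.50 and 7.40 in neutrophil co-culture (-0.23 ± 0.10; adjusted p = 0.283), the neutrophil arrays being the lowest.

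Genes that TLR signalling is known to induce in B cells were split in direction, with 19 of 31 differences positive both against B cells and against culture alone. Of the 31, 13 lay above the dim reference on all 6 arrays, Ifna4, Il12a, Ccl3, Cd80, Cd40, Icam1 and Myc among them. Another 7 did so on some arrays and 11 on none, Il6, Il10, Cxcl10 and Ifnb1 among the latter. The median difference of the 31 was 0.02 with neutrophils against B cells and 0.05 against culture alone. Egr1, an immediate early transcription factor, read 6.62 and 6.76 alone, 6.99 and 6.79 with B cells and 7.12 and 6.92 in neutrophil co-culture (neutrophil minus alone 0.33 ± 0.12; limma, adjusted p = 0.207). Bcl2a1a, a survival gene with near-identical copies that 1 probe set may not separate, read 7.01 and 7.30 alone, 7.05 and 7.32 with B cells and 6.79 and 6.45 in neutrophil co-culture (-0.54 ± 0.15; adjusted p = 0.139). Both genes lay below the dim reference on all 6 arrays. Cd69, an early activation marker named after its values were seen, read 8.87 and 8.86 alone, 8.66 and 8.40 with B cells and 9.19 and 9.05 in neutrophil co-culture. Its difference of 0.59 ± 0.11 between neutrophil and B-cell co-culture had the lowest adjusted p of the 129 genes there (0.123), and it passed the threshold when only the brighter genes were tested, as did 91 of those 11090 (0.821%). Without B-cell replicate 1, whose Cd69 reading was nearer the neutrophil readings than that of replicate 2, the difference was 0.71. That fit had 1 B-cell array.

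**Figure D4:**
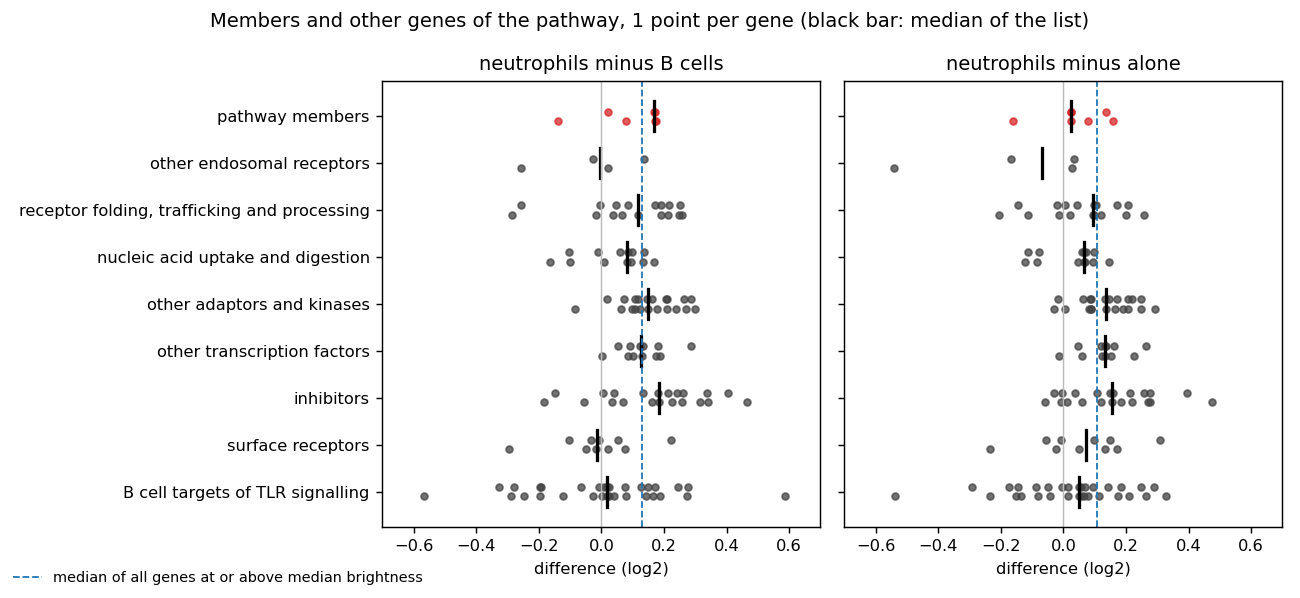
Each point is 1 gene, placed by its log2 difference between cultures (horizontal axis) in the row of its list (vertical axis), for neutrophils against B cells on the left and against culture alone on the right; black bars are list medians and the dashed line is the median of the 11090 brighter genes, at 0.13 and 0.11. The inhibitors have the rightmost medians, 0.18 and 0.15, and Bcl2a1a, at -0.57 and -0.54, lies at the left edge of the target genes.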

How the data were processed

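Each array of DP42 cell RNA has 1 column of log2 values that the authors deposited after RMA, per the submitters' processing notes; the RMA version, background steps and genome build are not given in the sources used here. RMA is meant to make array distributions alike, which would reduce a shift common to most genes. The deposited arrays still differed: the dim reference ran from 7.18 to 7.82. With neutrophils against B cells, 80.1% of the brighter genes and 51.7% of all genes had a positive difference. Of 41345 probe sets, 23521 name 1 gene in the platform annotation, 1814 several and 16010 none; only the first were used, and the probe set with the highest mean stood for each of 1082 genes with several, which gave 22180 genes. A linear model with group means over all 6 arrays was fitted in limma 3.58.1 (R 4.3.3) with eBayes, two-sided, with 3 residual and 5.55 prior degrees of freedom and Benjamini-Hochberg adjustment over all 22180 genes at 0.05, and was tested on simulated data. Members and lists were chosen with earlier results of these data known. Named were all members, every listed gene past the threshold and the 2 genes of each list with the largest neutrophil minus alone difference. For 4 members, the 3 genes of highest Pearson correlation at or above the median brightness were named too (range at least the member's divided by 2, predicted genes skipped). Dimness was read against olfactory and vomeronasal receptor genes. Alternatives changed the normalisation, centring, filter, probe set rule, variance model, covariate, arrays fitted and replicate block. The plots come from matplotlib 3.10.9, run under Python 3.11.15.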

Additional observations from a re-analysis of the deposited data

How the results depend on the processing

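None of the 7 measured genes was called in any comparison under any alternative, and the brighter-gene filter tested only 5 of them. Some alternatives called few genes or none, so 0 of 7 says little there. Quantile normalisation called 1 of 22180 genes in neutrophil minus B cells, 24 in neutrophil minus alone and 0 in B cells minus alone. Median centring called 62, 555 and 0 in that order. With each array's mean over the dim receptor genes as a covariate, limma called 0 of 22180 genes in each comparison. Among the alternative values of the differences of the 7 genes, 268 kept their sign and 20, none past the threshold, changed it. Many of the 268 could not change it. The brighter-gene filter, variance model, probe set rule, replicate block and fits without an array outside the comparison leave a difference as it was. The count of 268 is therefore no measure of how stable the signs are. With quantile normalisation the neutrophil minus alone difference became -0.10 for Irak1, -0.049 for Tlr9 and -0.083 for Unc93b1, neutrophil minus B cells -0.077 for Myd88 and 0.055 for Tlr7, and B cells minus alone 0.013 for Traf6. With each array's mean over the dim receptor genes as a covariate, neutrophil minus alone became -0.19 for Irak1, -0.13 for Traf6 and -0.13 for Unc93b1, and neutrophil minus B cells 0.023 for Tlr7 and -0.048 for Traf6. Leaving out each array in turn, neutrophil minus alone ran from -0.0017 to 0.050 for Irak1, -0.17 to 0.22 for Tlr7 and -0.0072 to 0.055 for Unc93b1, neutrophil minus B cells from -0.064 to 0.11 for Tlr3 and -0.29 to 0.0095 for Tlr7, and B cells minus alone from -0.032 to 0.36 for Tlr7 and -0.11 to 0.083 for Traf6. Of the 129 other pathway genes, none called at first, neutrophil minus alone called 1 (Dusp1) at a threshold of 0.10, beside 750 of all genes, 2 with only 4 arrays, beside 1338, and 0 to 2 with each array left out, beside 5 to 1338. Neutrophil minus B cells called 1 (Cd69) among the brighter genes, beside 91 of 11090, and 0 to 28 with each array left out, beside 1 to 5453, the highest of both without B-cell replicate 1. A group left with 1 array was assumed to vary like the others. The causes were not tested. Same-numbered arrays deviated together with correlations of -0.07, 0.07 and -0.15. These values show little shared deviation, but with 2 arrays a group they cannot tell whether the arrays were paired. With the replicate number as a block, 0 members and 0 other pathway genes were called in each comparison. Of all 22180 genes, that fit called 9 in neutrophil minus B cells, 373 in neutrophil minus alone and 0 in B cells minus alone. With 2 arrays a group, the neutrophil minus B cells intervals of the 5 genes above the dim reference reached 0.28 to 0.41. The smallest difference called in any gene was 0.75 in that comparison and 0.48 in neutrophil minus alone.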
